A study of Mus musculus with 12 samples.

Results

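The response described here is that of unstimulated mouse CD8+ T cells to IFN-4a, measured on 6 of the 12 arrays of a study of CD8+ T cells and type I interferon. The members were the 3 arrays titled with phosphate-buffered saline (PBS) and IFN, called PBS with IFN-4a, and the 3 titled with PBS alone. The comparison was the difference of their group means for each of 22180 genes that the array annotation names by a single symbol. The cells of all groups came from C57BL/6 spleen, were enriched with the CD8a+ T Cell Isolation Kit II and stood at 37 °C for 6 h. The other 6 arrays held cells given anti-CD3 antibody, which engages the T cell receptor complex, with IFN-4a or without it, and are used here for the shared estimate of spread and to set the resting changes beside those of stimulated cells. No genetic change was named for any group, and the sources used here give no IFN-4a dose, number of animals or batch. The 3 arrays of a group may therefore be technical repeats, and the p-values measure only the spread between them.

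Type I interferons bind a receptor that most cells carry, and the kinases JAK1 and TYK2 then activate transcription factors. A complex that holds IRF9 enters the nucleus, where it binds the interferon-stimulated response element, a repeat of GAAA separated by 2 bases, and drives the antiviral genes. Naive and memory CD8+ T cells at rest keep protein synthesis and growth low, and interferon received without antigen is known to hold back their division.

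The values were log values, taken as log2, that the authors had centred on each probe set's median over the 12 arrays. A value of 0 is thus a gene's own median and no level can be compared between genes; only differences between arrays are read here. The 12 arrays had medians of -0.0157 to 0.0165. Across all genes the PBS with IFN-4a arrays correlated with each other at 0.702 or more, and the PBS arrays with each other at 0.716 or more, against 0.404 at most between arrays of these 2 groups. The steps of the stored decimals mark 5679 genes as at 8 or above before centring, named brighter below. A value below 8 can fall on such a step by coincidence, so the mark is approximate and some marked genes may be dimmer. Of 9 measured CD8 T cell markers, 8 had stood at 8 or above on all 12 arrays, Cd28 being the exception. No CD4 T cell, myeloid, granulocyte, erythroid or platelet marker was marked in this way, and of B and NK cell markers Fcer2a, Ighm, Eomes and Nkg7 were.

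Resting CD8+ T cells answered IFN-4a with a small set of very large increases and a larger set of small decreases. In the limma test over all genes, 942 genes were higher with IFN-4a, which is 4.25% of those tested, and 1856 were lower, which is 8.37% (Benjamini-Hochberg adjusted p under 0.05, called from here on). Decreases made up 66.3% of the called genes. They were small: the median change of the lowered genes was -0.32 on the log2 scale, a 1.25-fold difference, with quartiles of -0.402 and -0.256, and the median standard error (SE) was 0.069. Of the lowered genes, 1237 changed by 0.25 to 0.5 in log2 size and 2 reached a 2-fold decrease, Ubash3b and the small nucleolar RNA Snora44, against 176 raised genes that reached a 2-fold increase. The median change of the raised genes was 0.38. Quantile normalization was applied to the centred values, where it evens out the arrays' deviations from the gene medians. It therefore cannot test the normalization of expression levels. After it 14 lowered and 177 raised genes reached 2-fold, and the median of the lowered genes was -0.33. Across all genes tested the median was -0.01. In bulk RNA, fewer cells of a type and less RNA per cell cannot be told apart, so each decrease is a smaller share of the RNA pool.

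The count of decreases depended on single arrays and was lower when the centred values were quantile normalized. With replicate 2 of the PBS with IFN-4a group left out 1082 genes were lower, and after quantile normalization 1216 were, of which 1054 and 1183 were among the 1856. Among the genes marked as at 8 or above, 1074 of 5679 (18.9%) were lower and 497 (8.75%) higher, against 4.74% lower and 2.7% higher among the others. The median change of the brighter genes was -0.071. The mark rests on a gene's 6 highest arrays, so an interferon gene can pass through its IFN-4a arrays alone (Mx2 was marked from 7 arrays and Ifit1 from 9), and a lowered gene through its PBS arrays. The shares among brighter genes are therefore partly set by the changes themselves and are given beside the lists only as a description. Of the 1856 lowered genes, 1839 had all 3 PBS with IFN-4a arrays below all 3 PBS arrays, which follows largely from their call on these arrays. Of all genes tested 18.7% had such a separation downwards.

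**Figure D1:**
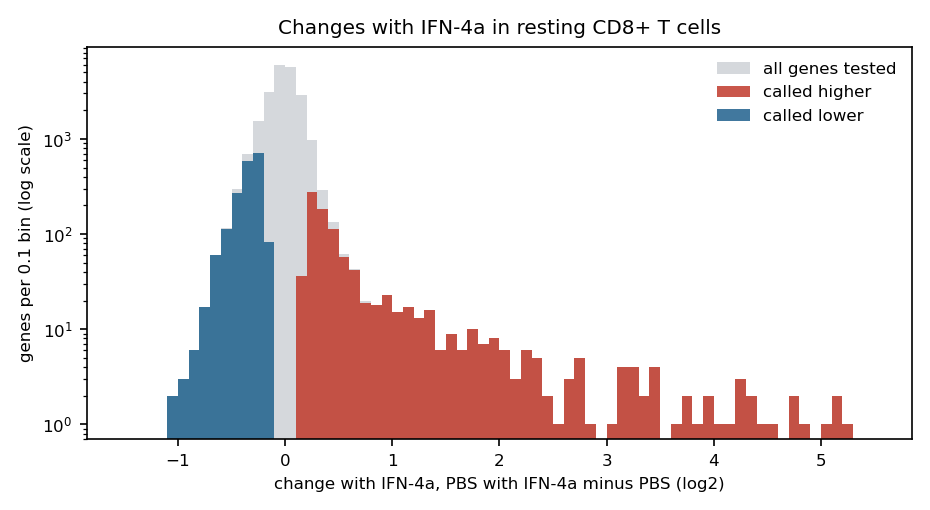
Number of genes (log axis) by the change with IFN-4a in resting cells, as the log2 difference of the mean of 3 PBS with IFN-4a arrays minus the mean of 3 PBS arrays, in bins of 0.1. Grey bars are all 22180 genes, red those called higher and blue those called lower. The 942 raised genes reach beyond 5, while the 1856 lowered genes lie between -1.07, that of the small nucleolar RNA Snora44, and -0.157.

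The largest increases mark the response and show how the lowered genes compare in size. Cxcl10 (Entrez 15945), the gene of a chemokine that draws CXCR3-bearing lymphocytes, stood at 1.04, 1.05 and 0.77 on the PBS with IFN-4a arrays, against -4.36, -4.23 and -4.26 on the PBS arrays. All 3 treated arrays lay far above all 3 mock-treated ones, a change of 5.24 (SE 0.09, limma adjusted p = 1.27e-13). Ifit1 (Entrez 15957), whose protein holds back viral RNA, stood at 2.29, 2.30 and 2.18 on the PBS with IFN-4a arrays, against -2.98, -2.89 and -2.84 on the PBS arrays. The groups did not overlap and the change was 5.16 (SE 0.07, adjusted p = 2.05e-14). Isg15, a ubiquitin-like protein attached to other proteins, changed by 3.48, Mx1, a dynamin-like GTPase that blocks viruses, by 4.22, and the transcription factor Irf7 by 3.43. The other genes among the 12 with the largest increase were Oasl2, Trim30c, Oas2, Usp18, Slfn5, Cmpk2, Mx2, Oasl1, Iigp1 and Ifih1, with changes of 4.29 to 5.19. With the centred values quantile normalized these sizes were smaller: Cxcl10 was at 3.97, Ifit1 at 3.97, Oasl2 at 3.84 and Iigp1 at 2.90. Isg15, Mx1 and Irf7 were then at 2.77, 3.31 and 2.69, and all of these genes were still called. Of 39 measured antiviral effectors 35 rose and 1 fell, with a median of 2.71. The 1 that fell was Ifi27, at -0.60 (adjusted p = 0.000359).

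The promoter windows of 3 raised and 3 lowered genes are printed because they hold the motifs counted below. Each window runs from 250 bases before to 50 after the start, from RefSeq on GRCm38.p6, read 5′ to 3′ on the gene's strand. The capitals in the first 3 mark every match to the core of the interferon-stimulated response element, searched as GAAA, any 2 bases and GAAA again, on either strand, so that TTTC repeats in Ifit1 are the same motif read on the opposite strand.
Cxcl10 (chr5:92348840-92349139, minus strand): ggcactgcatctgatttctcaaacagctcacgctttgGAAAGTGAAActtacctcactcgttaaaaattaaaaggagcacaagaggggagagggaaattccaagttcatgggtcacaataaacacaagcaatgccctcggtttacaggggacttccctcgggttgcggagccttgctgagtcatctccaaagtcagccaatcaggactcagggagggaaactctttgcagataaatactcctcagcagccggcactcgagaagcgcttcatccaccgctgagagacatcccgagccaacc
Ifit1 (chr19:34640639-34640938, plus strand): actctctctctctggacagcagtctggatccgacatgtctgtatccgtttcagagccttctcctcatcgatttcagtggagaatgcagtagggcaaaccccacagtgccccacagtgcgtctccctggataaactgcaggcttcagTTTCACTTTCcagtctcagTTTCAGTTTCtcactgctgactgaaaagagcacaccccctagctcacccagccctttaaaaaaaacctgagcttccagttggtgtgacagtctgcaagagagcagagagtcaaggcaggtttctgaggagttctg
Isg15 (chr4:156200769-156201068, minus strand): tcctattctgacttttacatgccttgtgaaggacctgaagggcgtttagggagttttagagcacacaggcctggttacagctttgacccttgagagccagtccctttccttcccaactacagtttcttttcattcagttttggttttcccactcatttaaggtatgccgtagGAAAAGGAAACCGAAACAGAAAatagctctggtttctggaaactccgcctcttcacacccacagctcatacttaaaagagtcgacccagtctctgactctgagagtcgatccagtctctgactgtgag
In the next 3 the capitals mark CACGTG, the E-box core that reads the same on both strands and is held by many lysosomal gene and Myc target promoters.
Sgsh (chr11:119355461-119355760, minus strand): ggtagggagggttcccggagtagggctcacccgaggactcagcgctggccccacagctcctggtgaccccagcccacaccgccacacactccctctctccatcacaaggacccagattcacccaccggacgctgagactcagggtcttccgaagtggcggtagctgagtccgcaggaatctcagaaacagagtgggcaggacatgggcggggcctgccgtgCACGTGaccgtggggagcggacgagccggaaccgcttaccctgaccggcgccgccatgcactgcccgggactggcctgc
Cln3 (chr7:126583187-126583486, minus strand): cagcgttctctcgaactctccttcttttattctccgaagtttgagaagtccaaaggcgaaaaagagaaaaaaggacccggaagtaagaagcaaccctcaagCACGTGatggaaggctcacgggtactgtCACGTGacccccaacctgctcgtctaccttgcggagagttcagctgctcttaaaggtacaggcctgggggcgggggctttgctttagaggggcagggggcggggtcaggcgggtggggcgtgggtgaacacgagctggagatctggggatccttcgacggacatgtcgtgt
Pno1 (chr11:17211540-17211839, minus strand): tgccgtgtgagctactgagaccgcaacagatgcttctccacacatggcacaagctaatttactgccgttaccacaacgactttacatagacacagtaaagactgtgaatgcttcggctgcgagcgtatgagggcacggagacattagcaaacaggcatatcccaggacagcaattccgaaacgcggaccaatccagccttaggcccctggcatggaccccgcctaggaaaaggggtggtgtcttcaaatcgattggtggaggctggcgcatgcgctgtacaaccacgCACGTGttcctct
The Cxcl10 match begins at position -213 from the start, those of Ifit1 at -104 and -85, and those of Isg15, which overlap, at -78, -72 and -66. The E-box of Sgsh begins at -29, those of Cln3 at -149 and -121, and that of Pno1 at 37, after the start. Cln3 has another RefSeq window without the motif.

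RefSeq gave a window for 16918 of the tested genes, and the response element core was found in 3.88% of them. The share was 13.1% of 727 raised genes with a window and 31.9% of the 138 raised at least 2-fold. Of 29 antiviral effectors with a window 44.8% held it. Of 1447 lowered genes with a window 2.21% held it, and none of the 17 with a window among the 24 largest decreases did. CACGTG was in 9.22% of all windows, 13.1% of those of genes at 8 or above, 11.4% of raised and 14.8% of lowered genes. Lysosomal enzyme genes held it in 11 of 39 windows (28.2%), and 7 of the 18 lowered ones with a window did (38.9%). Ribosome biogenesis genes held it in 13 of 70 (18.6%), and 7 of 35 lowered ones did (20%). A match is a run of letters in this window and was not tested as a site.

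The 24 named genes with the largest decrease span several functions, with signalling, lysosome and mitochondrial metabolism each present. Ubash3b (Entrez 72828), which encodes the phosphatase STS-1, a brake on T cell receptor signalling, stood at -1.83, -1.78 and -1.55 on the PBS with IFN-4a arrays, against -0.74, -0.75 and -0.53 on the PBS arrays. All 3 treated arrays were the lowest of the 6, and the change was -1.05 (SE 0.08, adjusted p = 7.82e-07), a 2.07-fold decrease. Clybl (Entrez 69634), a mitochondrial enzyme that clears citramalyl-CoA, stood at -0.19, -0.23 and 0.11 on the PBS with IFN-4a arrays, against 0.74, 0.94 and 0.94 on the PBS arrays. Its change was -0.98 (SE 0.10, adjusted p = 3e-05) with no overlap. Sgsh (Entrez 27029), the lysosomal sulfamidase that degrades heparan sulfate, stood at -0.12, -0.17 and 0.19 on the PBS with IFN-4a arrays, against 0.79, 0.79 and 1.04 on the PBS arrays. All treated arrays lay below every PBS array, and the change was -0.90 (SE 0.10, adjusted p = 3.98e-05).

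Slc26a11, a sulfate and chloride transporter gene, is the neighbour of Sgsh on chromosome 11 in the RefSeq order and changed by -0.92 (adjusted p = 3.18e-05). Of the 48 neighbours of the 24 genes, 10 were called lower (20.8%, against 8.37% of all genes) and 4 higher; Sgsh and Slc26a11 are 2 of the 10, each counted as the neighbour of the other. The higher ones include Rnf213, at 3.65, on the other side of Slc26a11, and Ifi35, at 1.38, beside Vat1. The neighbour of Ubash3b with the larger change was Crtam, a receptor of activated CD8+ T cells, at -0.61 (adjusted p = 3.14e-05). Whether neighbouring probe sets share signal was not tested.

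Arrb1 (Entrez 109689), encoding beta-arrestin 1, which uncouples G protein-coupled receptors after activation, stood at 0.21, -0.01 and 0.18 on the PBS with IFN-4a arrays, against 0.93, 1.01 and 0.92 on the PBS arrays. The arrays did not overlap and the change was -0.83 (SE 0.08, adjusted p = 1.36e-05). Gstt2 (Entrez 14872), a glutathione transferase, stood at -0.49, -0.51 and -0.55 on the PBS with IFN-4a arrays, against 0.23, 0.31 and 0.37 on the PBS arrays. Its arrays did not overlap and gave the smallest adjusted p among the 24 decreases, 2.1e-07, for a change of -0.82 (SE 0.06). Cdc25b, the phosphatase that activates CDK1 at entry into mitosis, changed by -0.79. Pccb, the beta subunit of mitochondrial propionyl-CoA carboxylase, changed by -0.79, while Pcca, which encodes the alpha subunit, stood at a change of -0.06 (adjusted p = 0.586).

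The remaining largest decreases ran from -0.82 to -0.71. They included Hvcn1, the voltage-gated proton channel (-0.76), Slc25a37, mitoferrin 1, which brings iron into mitochondria (-0.75), Rasgrp2, the activator of Rap1 that promotes integrin adhesion (-0.74), and Vkorc1, the reductase that recycles vitamin K (-0.82). Plaur, the urokinase receptor (-0.81), Abca2, a lipid transporter of the endosome and lysosome (-0.75), and Bbs9, a subunit of the BBSome of cilia (-0.78), also fell. Mturn, Vat1, Abhd14b, Mettl27, Rassf3 and Actn2 make up the rest with the pseudogene Gpx2-ps1, the histone gene H4c9 and the vomeronasal receptor gene Vmn1r20. Of the 24, 10 had not stood at 8 or above: Clybl, Slc26a11, Vkorc1, Plaur, Gpx2-ps1, Abca2, Rassf3, Actn2, Vmn1r20 and H4c9, whose decreases are thus those of dimmer probe sets.

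**Figure D2:**
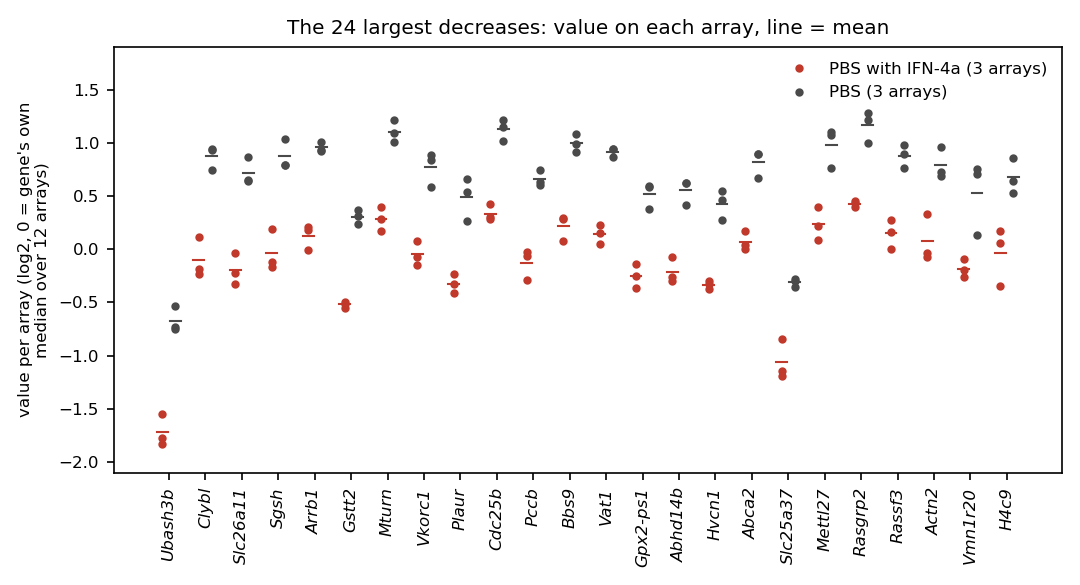
Values of the 24 named genes with the largest decrease on each of the 3 PBS with IFN-4a arrays (red, left of each pair) and the 3 PBS arrays (grey), on the log2 scale with 0 at the gene's own median over 12 arrays; short lines are group means. The rule that chose these genes required that the groups not overlap, and the distance between the group means runs from 0.71 in H4c9 to 1.05 in Ubash3b.

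Ribosome biogenesis had the largest share of lowered members of the 29 gene lists. These proteins transcribe, cut, modify and assemble ribosomal RNA and its precursors in the nucleolus. Of 82 measured members 41 fell and 1 rose, with a median of -0.21, against 8.37% of all genes and 18.9% of brighter genes lowered; 80 of the 82 belonged to the brighter genes. In all, 75 members had a negative change; 55 lay lower without overlap between the groups and 2 higher, where 18.7% of all genes and 36.2% of brighter genes lay lower in that way. The list's median per array was -0.747, -0.808 and -0.779 on the PBS with IFN-4a arrays, against -0.572, -0.552 and -0.566 on the PBS arrays. The 3 treated arrays lay below the 3 others by an amount that was small beside the position of the list in stimulated cells, where the anti-CD3 with IFN-4a arrays stood at 0.540, 0.625 and 0.552 and the anti-CD3 arrays at 0.644, 0.7 and 0.620.

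Nat10 (Entrez 98956), the acetyltransferase that places N4-acetylcytidine on 18S ribosomal RNA, stood at -1.70, -1.48 and -1.77 on the PBS with IFN-4a arrays, against -1.01, -1.03 and -0.83 on the PBS arrays. The groups did not overlap and the change was -0.69 (SE 0.08, adjusted p = 7.09e-05). Pwp2, a scaffold of the small subunit processome, stood at -1.33, -1.28 and -1.20 on the PBS with IFN-4a arrays, against -0.83, -0.72 and -0.83 on the PBS arrays, a change of -0.48 (adjusted p = 0.000239). Pno1, which assists the last cut of 18S ribosomal RNA, fell by 0.45, and Noc2l, which takes part in early large subunit assembly, fell by 0.44.

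Further members named after their values were seen include the small subunit processome gene Utp20 (-0.42), the large subunit factors Noc3l (-0.41) and Wdr12 (-0.39), and the RNA polymerase I subunits Polr1a (-0.38) and Polr1b (-0.34). The abundant nucleolar proteins did not pass the test: Npm1 was at -0.16 (adjusted p = 0.0596), Ncl at -0.02 (0.865) and the pseudouridine synthase Dkc1 at -0.11 (0.196). Myc, a driver of ribosome genes, was at 0.12 (adjusted p = 0.376). The member that rose was the kinase Riok1, at 0.36 (adjusted p = 0.0178).

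Genes that serve translation in other ways fell to differing degrees. Of 50 tRNA synthetase and tRNA modification genes 18 fell and 3 rose, with a median of -0.16; of the 37 brighter members 12 fell. Qtrt1, which places queuosine in tRNA, stood at -0.94, -0.96 and -0.82 on the PBS with IFN-4a arrays, against -0.41, -0.42 and -0.48 on the PBS arrays. Those arrays did not overlap, and the change was -0.47 (adjusted p = 0.000123). Trmt1, a tRNA guanosine methyltransferase, fell by 0.47. In the opposite direction, Wars, the tryptophanyl-tRNA synthetase known as an interferon-induced gene, stood at -0.48, -0.53 and -0.61 on the PBS with IFN-4a arrays, against -1.35, -1.40 and -1.31 on the PBS arrays. It rose by 0.81 (SE 0.05, adjusted p = 1.85e-07), and Vars, the valyl-tRNA synthetase, rose by 0.48.

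Cytosolic ribosomal proteins, the building blocks of the ribosome itself, gave 5 lowered members of 67 and none raised, a share near that of all genes, with a median of -0.10. The 5 were Rpl34 (-0.41), Rpl37a, Rps25, Rpl29 and Rpl10a. The calls of Rpl34, Rpl37a and Rps25 were lost without 1 or another array, with adjusted p up to 0.129. Mitochondrial ribosomal proteins gave 15 lowered and 2 raised of 71, with a median of -0.15; 11 of 43 brighter members fell. Mrps18b, a protein of the small mitochondrial subunit with 2 probe sets, stood at -1.12, -0.96 and -0.97 on the PBS with IFN-4a arrays, against -0.56, -0.46 and -0.52 on the PBS arrays, a change of -0.50 (adjusted p = 6.69e-05) without overlap. Mrps24 fell by 0.37 and Mrpl32 by 0.51 (adjusted p = 0.0541 without replicate 3 of PBS), and Mrpl1 rose by 0.26.

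Lysosomal enzymes had the next largest share of lowered members. They degrade proteins, glycans and lipids in the acid interior of the lysosome. Of 47 measured, 20 fell and 3 rose, with a median of -0.19; of the 26 brighter members 13 fell, against 18.9%. The list's median per array was 0.099, 0.052 and 0.070 with IFN-4a, against 0.217, 0.271 and 0.25 in PBS, which do not overlap. Besides Sgsh, the acid phosphatase Acp5 stood at 0.33, 0.31 and 0.36 on the PBS with IFN-4a arrays, against 0.76, 0.81 and 0.86 on the PBS arrays, a change of -0.47 (adjusted p = 0.000659). Aga, which cleaves asparagine from glycopeptides, stood at -0.03, -0.06 and 0.03 on the PBS with IFN-4a arrays, against 0.36, 0.47 and 0.51 on the PBS arrays, a change of -0.47 (adjusted p = 0.00264). Both genes were lower on all 3 treated arrays.

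Of the 47 enzymes 24 were not called, among them Lipa at 0.02 (adjusted p = 0.816), Ctsb at -0.02 (0.894) and Galc at -0.09 (0.724). The lowered enzymes were spread over several classes of substrate. For glycogen it was the alpha-glucosidase Gaa (-0.46), for sphingomyelin Smpd1 (-0.45), and for gangliosides the activator Gm2a (-0.44) and the hexosaminidase Hexa (-0.32). For heparan sulfate, Naglu (-0.27), Hgsnat (-0.28) and Ids (-0.34) fell with Sgsh, and for proteins the cathepsins Ctsd (-0.45), Ctsf (-0.33) and Ctsa (-0.32). Cathepsin S, Ctss, which trims the invariant chain in antigen presentation, stood at 0.75, 0.67 and 0.63 on the PBS with IFN-4a arrays, against -0.41, -0.24 and -0.26 on the PBS arrays. It rose by 0.99 (SE 0.08, adjusted p = 1.25e-06), and Ctso and Npc2 rose by 0.23 and 0.20.

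The lysosomal membrane did not move in 1 direction. Of 43 genes of the membrane and its proton pump 8 fell and 4 rose, with a median of -0.11, and 7 of 28 brighter members fell. Tpcn1, an endolysosomal cation channel, fell by 0.53, and the Batten disease protein gene Cln3 stood at -0.05, 0.11 and 0.08 on the PBS with IFN-4a arrays, against 0.45, 0.35 and 0.56 on the PBS arrays, a change of -0.41 (adjusted p = 0.00107). Lamp2, a structural membrane protein, stood at 0.13, 0.02 and 0.07 on the PBS with IFN-4a arrays, against -0.33, -0.40 and -0.42 on the PBS arrays, a rise of 0.46 (adjusted p = 0.000245). Tmem192 rose by 0.38, while Lamp1 was at -0.12 (adjusted p = 0.267). Tfeb and Tfe3, the factors that bind lysosomal gene promoters, were at 0.01 (adjusted p = 0.952) and 0.15 (0.12). Of 39 autophagy genes 3 fell and 1 rose, close to the share in all genes, and the calls of Atg2b, Tecpr1 and Vmp1 were lost in 5, 9 and 3 alternatives.

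**Figure D3:**
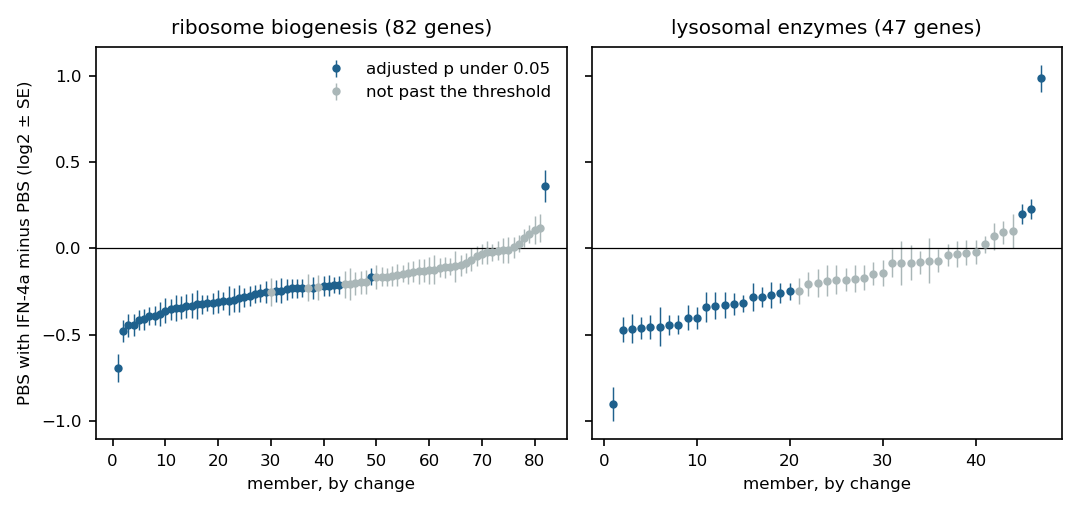
Change with IFN-4a in resting cells (log2, mean of 3 PBS with IFN-4a arrays minus mean of 3 PBS arrays, bars ± SE) for each member of the ribosome biogenesis list (left) and the lysosomal enzyme list (right), ordered by change. Blue points passed the limma test, 41 lower and 1 higher among 82 genes and 20 lower and 3 higher among 47; Nat10 and Sgsh are the lowest points and Ctss the highest on the right.

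Mitochondrial metabolism was lowered in the matrix enzymes more than in the respiratory chain by count, though that difference between lists was not tested. Of 58 genes of the tricarboxylic acid (TCA) cycle and related matrix pathways 18 fell and 1 rose, with a median of -0.12; 12 of the 32 brighter members fell. Fh1, fumarase, stood at -0.58, -0.59 and -0.63 on the PBS with IFN-4a arrays, against -0.31, -0.07 and -0.22 on the PBS arrays, a change of -0.39 (adjusted p = 0.000775). Mccc1 and Mccc2, the subunits of the carboxylase of leucine breakdown, fell by 0.41 and 0.37. With Pccb, 2 other genes of the propionate route fell: Mmut, the vitamin B12-dependent mutase (-0.29), and Mmab, which makes its cofactor (-0.39), while Mmaa was at -0.25 (adjusted p = 0.0516). Idh3b fell by 0.33. Of 77 respiratory chain and ATP synthase genes 7 fell and 1 rose, near the share in all genes and below it among brighter ones, with 6 of 46; Ndufs7, a complex I subunit, had a change of -0.43 (adjusted p = 0.00146).

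Fatty acid oxidation and peroxisome genes gave 15 lowered and 3 raised of 59, with a median of -0.14, and 11 of 28 brighter members lowered. Hadh, which oxidises hydroxyacyl-CoA in mitochondria, stood at -0.06, -0.16 and -0.09 on the PBS with IFN-4a arrays, against 0.57, 0.39 and 0.58 on the PBS arrays, a change of -0.61 (SE 0.08, adjusted p = 0.000144). Hacl1 of the peroxisome fell by 0.44, Ech1 by 0.41 and Cpt1a, which admits fatty acids to mitochondria, by 0.31. Acadl, the long-chain acyl-CoA dehydrogenase, stood at 0.69, 0.70 and 0.57 on the PBS with IFN-4a arrays, against -0.12, -0.11 and -0.06 on the PBS arrays. It rose by 0.75 (adjusted p = 1.63e-06), opposite to the lowered members. Of 36 cholesterol and fatty acid synthesis genes 6 fell, led by the sterol-responsive factor Srebf2 (-0.32, adjusted p = 0.00266), and none rose. Of the 16 brighter members 3 fell, close to the 18.9% of brighter genes, and the calls of Fasn, Tm7sf2 and Fads1 were lost in 3, 8 and 2 alternatives.

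Sugar and nucleotide metabolism showed decreases beside a few clear increases. Of 34 glycolysis and pentose phosphate genes 12 fell and 4 rose, with a median of -0.15; 9 of 22 brighter members fell. Pfkl, a phosphofructokinase subunit, fell by 0.36, Rpia, which makes ribose 5-phosphate, by 0.44 (adjusted p up to 0.053 with 1 array left out), and Slc2a3, a glucose transporter, by 0.33. Hk1, hexokinase 1, stood at 0.19, 0.33 and 0.39 on the PBS with IFN-4a arrays, against -0.13, -0.09 and -0.13 on the PBS arrays, a rise of 0.42 (adjusted p = 0.000772), while Gapdh and Ldha were at 0.01 (adjusted p = 0.956) and -0.05 (0.774). Of 57 genes of nucleotide, amino acid and one-carbon synthesis 13 fell and 3 rose, with 12 of 37 brighter members lowered. Aprt, which salvages adenine, fell by 0.53, and Impdh1, of guanine nucleotide synthesis, by 0.44. Mtrr, the methionine synthase reductase, fell by 0.47. Nampt, the rate-limiting enzyme of NAD salvage, stood at 0.15, 0.21 and 0.04 on the PBS with IFN-4a arrays, against -1.84, -1.74 and -1.97 on the PBS arrays. It rose by 1.99 (SE 0.07, adjusted p = 1.48e-10), and by 1.34 after quantile normalization.

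Genes of T cell receptor signalling and its brakes moved in both directions. Of 74 measured 13 fell and 7 rose, with a median of -0.06, and 12 of 60 brighter members fell, close to the 18.9% of brighter genes. Several lowered members are brakes in addition to Ubash3b. Cd5, an inhibitory receptor set by the strength of receptor signals, stood at -1.11, -1.04 and -0.86 on the PBS with IFN-4a arrays, against -0.54, -0.52 and -0.38 on the PBS arrays, a change of -0.53 (adjusted p = 0.000454), with no overlap. Sit1, an adaptor that recruits phosphatases, fell by 0.58, although its adjusted p was 0.277 after quantile normalization; Csk, the kinase that restrains Lck, fell by 0.34 and the adaptor Sla2 by 0.40. Activating members fell as well, among them the adaptor Lat (-0.35), the phospholipase Plcg1 (-0.34) and the Ras activator Rasgrp1 (-0.31). Sla, an adaptor that promotes turnover of the receptor complex, stood at -0.25, -0.42 and -0.39 on the PBS with IFN-4a arrays, against -1.55, -1.34 and -1.31 on the PBS arrays. It rose by 1.05 (adjusted p = 2.54e-07), and the Ras activator Sos1 rose by 0.58. Ubash3a, the close relative of Ubash3b, was at -0.09 (adjusted p = 0.343).

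The CD8 T cell markers included 3 lowered genes, Thy1, Cd5 and Cd3d. Thy1, a surface glycoprotein of mouse T cells, stood at 0.25, 0.20 and 0.41 on the PBS with IFN-4a arrays, against 0.87, 0.90 and 0.998 on the PBS arrays, a change of -0.63 (adjusted p = 2.6e-05). The co-receptor genes moved little: Cd8a was at 0.14 (adjusted p = 0.0686) and Cd8b1 at 0.05 (0.554). Of the CD3 chain genes, Cd3d was at -0.24 (adjusted p = 0.0102), Cd3e at -0.01 (0.93) and Cd3g at -0.02 (0.845). Among markers of other cells, none of 6 for CD4 T cells, 10 for B cells, 13 for myeloid cells, 10 for granulocytes and 4 for erythroid cells and platelets was called in either direction, and of 8 NK cell markers Gzma, which CD8+ T cells also express, rose.

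Some genes of G protein and nutrient signalling fell and fewer rose. Of 59 G protein and cyclic AMP genes 16 fell and 6 rose, with a median of -0.07. Among 29 brighter members 11 fell, against 18.9% of all brighter genes. Both beta-arrestins were lowered, Arrb2 standing at 0.07, 0.08 and 0.18 on the PBS with IFN-4a arrays, against 0.57, 0.69 and 0.63 on the PBS arrays, a change of -0.52 (adjusted p = 0.000129). The receptor kinases Grk6 (-0.44) and Grk5 (-0.40) fell, and the adenylyl cyclase Adcy7 fell by 0.53. S1pr1, the receptor through which T cells leave lymphoid organs, fell by 0.37. Gpr65, a proton-sensing receptor, rose by 0.51 and the cyclic AMP-responsive repressor Crem by 0.34. Of 61 PI3K, mTOR and nutrient signalling genes 12 fell and 3 rose, with a median of -0.06. Among 25 brighter members 6 fell, not far from the 18.9% of all brighter genes. Ddit4, an inhibitor of mTOR complex 1, stood at -0.55, -0.70 and -0.47 on the PBS with IFN-4a arrays, against -0.02, 0.02 and 0.15 on the PBS arrays, a change of -0.63 (adjusted p = 0.00187). Rragb, a GTPase that brings mTOR to the lysosome, fell by 0.55, Rptor, a subunit of mTOR complex 1, by 0.36 and Akt1 by 0.34. Phlpp1, a phosphatase of AKT, rose by 0.996 (adjusted p = 1.34e-06).

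Homing and adhesion genes included both retention and activation markers. Of 48 measured 12 fell and 7 rose, with a median of -0.17. Among 42 brighter members 10 fell, not far from the 18.9% of all brighter genes. Itgb7 and Itgae, whose products pair as the integrin that holds T cells in epithelium, were both lowered. Itgb7 stood at 0.07, 0.02 and 0.16 on the PBS with IFN-4a arrays, against 0.62, 0.71 and 0.79 on the PBS arrays, a change of -0.62 (adjusted p = 0.000148). Itgae fell by 0.51 and Klf2, the factor that maintains quiescence and S1pr1 expression, by 0.37, while Ccr7 was at -0.17 (adjusted p = 0.0924) and Il7r at -0.03 (0.837). Cd69, which opposes S1PR1 at the surface, stood at -0.39, -0.36 and -0.70 on the PBS with IFN-4a arrays, against -1.63, -1.47 and -1.82 on the PBS arrays. It rose by 1.16 (adjusted p = 1.62e-06). Il2ra rose by 0.98, but by 0.13 after quantile normalization (adjusted p = 0.574), and Icam1 and the repressor Bcl6 rose by 0.90 and 0.66.

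Glycan synthesis, cell cycle, DNA repair and chaperone genes also gave both directions. Of 75 glycan synthesis genes 18 fell (24%) and 3 rose, with a median of -0.11, and 9 of 32 brighter members fell; Man2a2, a Golgi mannosidase, stood at 0.17, 0.20 and 0.38 on the PBS with IFN-4a arrays, against 0.85, 0.85 and 0.98 on the PBS arrays, a change of -0.64 (adjusted p = 2.55e-05). B4galt5, a galactosyltransferase of glycolipid synthesis, rose by 1.76. Of 59 cell cycle and replication genes 7 fell and 4 rose; Ccnd2, cyclin D2, stood at -0.09, -0.17 and -0.24 on the PBS with IFN-4a arrays, against -1.71, -1.57 and -1.63 on the PBS arrays, a rise of 1.47 (adjusted p = 3.73e-10), and the pocket protein gene Rbl1, which restrains cell cycle entry, rose by 0.94. Of 78 DNA repair genes 13 fell and 2 rose, among them the mismatch repair genes Mlh3, lowered at -0.59, and Msh3, raised at 0.54. Of 44 chaperone and ER stress genes 5 fell and 3 rose: Hspa5, the main chaperone of the endoplasmic reticulum, rose by 0.49, and the stress sensor Eif2ak3 fell by 0.48. The lowered shares were 11.9% for cell cycle, 16.7% for DNA repair and 11.4% for chaperones, against 8.37% of all genes. Among their brighter members 5 of 26, 5 of 27 and 5 of 34 fell, near or below the 18.9% of brighter genes.

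Beyond the antiviral effectors, raised genes lay in immune lists, most of them with few or no lowered members. Over all genes tested 4.25% rose, and of brighter genes 8.75% did. Of 20 nucleic acid sensors 13 rose, and of 19 MHC class I presentation genes 14 rose and none fell, with H2-T24 at 4.02 (3.07 after quantile normalization) and the class I transactivator Nlrc5 at 1.54. Of 28 interferon signalling genes 9 rose, including Stat2 (2.20) and Irf9 (1.76), and 2 fell, the interferon gamma receptor chain Ifngr2 (-0.41) and the phosphatase Ptpn1 (-0.24). Of 28 apoptosis genes 11 rose, led by Pml and Daxx at 2.09 and 2.04. Of 23 coinhibitory receptors and ligands 7 rose and none fell: Cd274, encoding PD-L1, stood at -0.56, -0.39 and -0.68 on the PBS with IFN-4a arrays, against -2.76, -2.91 and -2.72 on the PBS arrays, a change of 2.25 (adjusted p = 1.09e-10; 1.33 after quantile normalization), and Cd86 changed by 2.03. Of 18 cytotoxic effectors Gzma (2.28), Tnfsf10, Gzmb (1.33) and Fasl rose, Fasl with an adjusted p up to 0.0567 with 1 array left out, and perforin, Prf1, fell by 0.31 with Ctsc, the protease that activates granzymes, at -0.26. Among the 11 brighter cytotoxic effectors 2 rose and 2 fell. Of 22 cytokines and chemokines 3 rose (13.6%), Cxcl10, Ccl4 (0.50) and Csf1 (0.45), all 3 among the 14 brighter members. Ccl4 lost its call in 5 alternatives and was at -0.36 after quantile normalization, and Csf1 lost its call in 2.

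**Figure D4:**
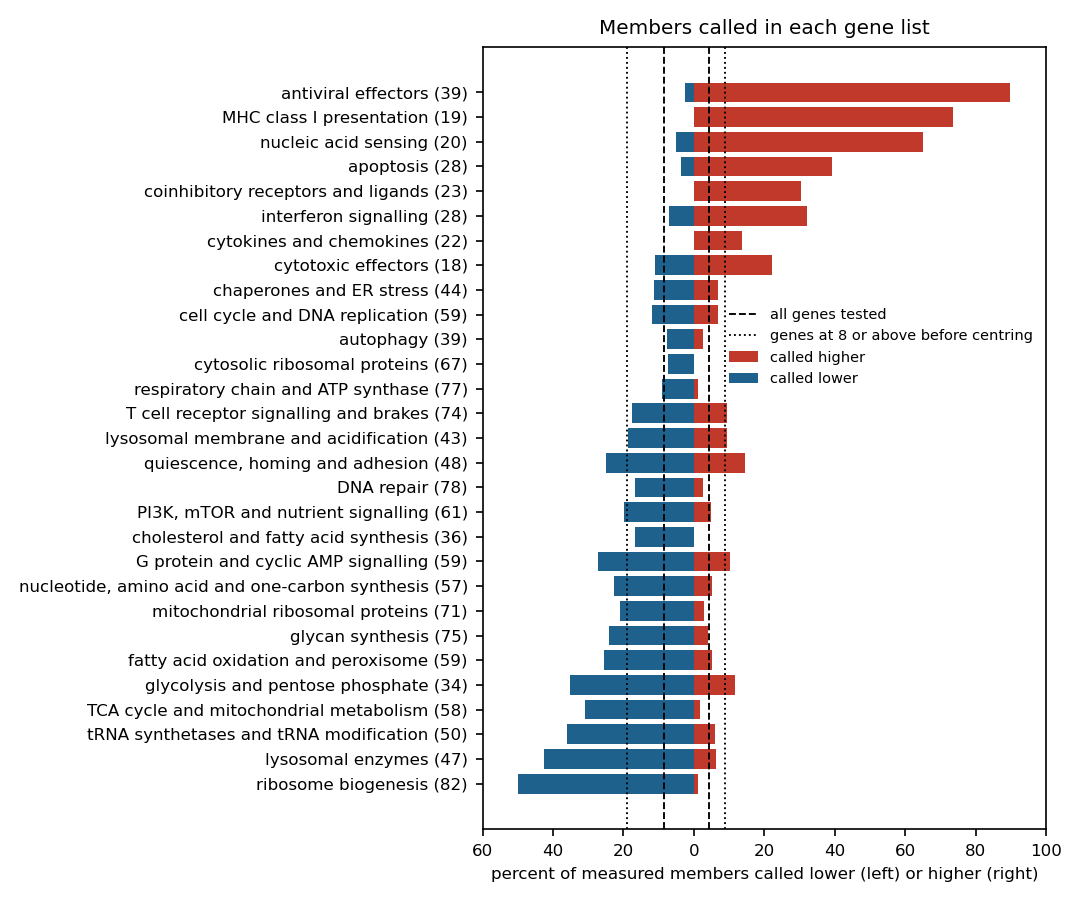
Percent of measured members called lower (blue, left of 0) and higher (red, right of 0) with IFN-4a in resting cells for each of the 29 gene lists, with the number measured in brackets, ordered by the percent higher minus the percent lower. Dashed lines are the shares over all genes tested (8.37% lower, 4.25% higher) and dotted lines those over genes at 8 or above before centring (18.9% and 8.75%); ribosome biogenesis reaches 50% lower and antiviral effectors 89.7% higher.

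The arrays of stimulated cells do not enter the resting group means, though their spread enters the resting test: with the 6 resting arrays alone 1552 genes were lower and 865 higher. They give another measurement of the IFN-4a change of the same genes. Of the 1856 genes lowered at rest, 1628 (87.7%) had a negative IFN-4a change in stimulated cells too, where 51% of all genes did. The median IFN-4a change of the 1856 genes there was -0.122. Brighter genes made up 57.9% of the 1856. The median change of all brighter genes in stimulated cells was -0.056, against -0.002 for all genes. In stimulated cells 1.46% of all genes were called lower and 2.02% higher; of the 1856 genes 215 were called lower and 2 higher. The difference of the IFN-4a changes was called for 0.942% of all genes and for 49 of the 1856. Each of the 49 had a smaller decrease or none in stimulated cells, a direction that choosing genes by their resting change favours. The per-array median of the 1856 genes was -0.082, -0.099 and -0.068 with IFN-4a against 0.195, 0.231 and 0.234 in PBS. That separation follows from the choice of the genes on these arrays. In stimulated cells the median was -0.114, -0.021 and -0.085 with anti-CD3 and IFN-4a against 0.001, 0.023 and 0.054 with anti-CD3. Of the 942 raised genes 819 (86.9%) were positive in stimulated cells, 371 were called higher there, and the difference was called for 145.

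Among single genes, Sgsh changed by -0.77 in stimulated cells against -0.90 at rest, Itgb7 by -0.61 against -0.62, and Hadh by -0.51 against -0.61, all called in both states. Ubash3b changed by -0.42 against -1.05, a difference with adjusted p = 0.0164. Nat10 was at -0.15 against -0.69 (difference adjusted p = 0.0419), Slc25a37 at -0.11 against -0.75 (0.0302) and Thy1 at -0.06 against -0.63 (0.00788). Of the raised genes, Cd274 was at 0.02 in stimulated cells and Iigp1 at 0.36, against 2.25 and 4.32 at rest, while Trim30c and Mx2 were at 5.01 and 4.40 against 5.02 and 4.42. Cd274 already stood at 0.55, 0.48 and 0.39 on the anti-CD3 arrays without IFN-4a. These values lay above those of PBS with IFN-4a, at -0.56, -0.39 and -0.68.

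**Figure D5:**
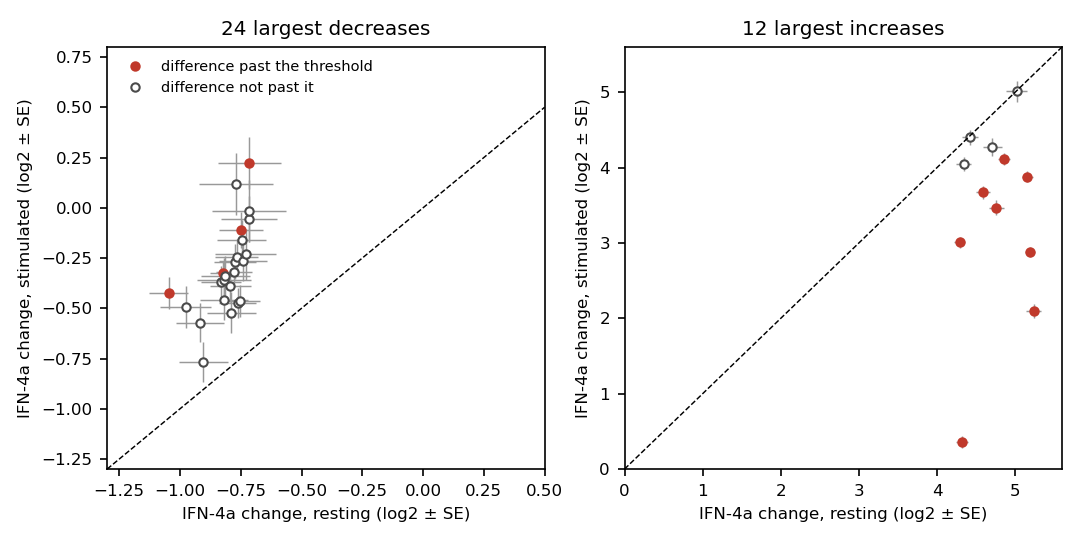
IFN-4a change in stimulated cells (vertical, anti-CD3 with IFN-4a minus anti-CD3) against that in resting cells (horizontal, PBS with IFN-4a minus PBS), log2 ± SE from 3 arrays a group, for the 24 named decreases (left) and the 12 named increases (right). Red points passed the test of the difference and the dashed line marks equal changes; all 24 decreases lie above the line, which the choice of genes by their resting change favours, and Sgsh lies nearest to it.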

How the data were processed

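RNA of 12 samples of mouse CD8+ T cells was measured on single-channel arrays. Total RNA was extracted with RNeasy columns and labelled with biotin through the WT Plus kit, per the labels' protocols. The deposited values were log values, taken as log2 and centred by the authors on each row's median (largest absolute row median 5e-07); they ran from -4.55 to 3.31. How probes were corrected, summarized and normalized, the log base and the software were not given in the sources used here. With a natural log every fold would be larger. Arrays give no count depth, so the number of arrays limits the precision.

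Of 33793 rows, 23521 had 1 gene symbol in the platform annotation, 1814 several and 8458 none. Rows of a gene were averaged (1082 genes had several), giving 22180 genes, of which 21994 were found by Entrez identifier in RefSeq on GRCm38.p6 under the same symbol. Groups followed the sample titles. limma 3.58.1 in R 4.3.3 fitted 4 group means over all 12 arrays with two-sided moderated tests (residual degrees of freedom 8, prior 5.18) and Benjamini-Hochberg adjustment over all genes, called under 0.05. The design was tested on simulated data.

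Stored decimals are multiples of a step that grows with the value before centring. Rows whose values on their 6 highest arrays were whole multiples of the step for 8 or above were marked as brighter (7203 rows, 5679 genes). Dimmer rows have a finer step and can meet this by coincidence, so the mark is approximate. Promoter windows and their order along chromosomes came from RefSeq, and a gene counted as holding a motif when any of its windows did.

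Named were the 12 largest called increases and 24 largest called decreases without overlap between groups, leaving aside small RNAs, antigen receptor segments and predicted genes; the 4 members of each of 29 lists with the largest absolute change; and Ifit1, Isg15, Mx1, Irf7, Cd8a, Cd8b1, Cd3e and Lck (not measured under 1 symbol). Other genes were named after their values were seen. The members, lists and tests were chosen with earlier results of these data known, and the brighter background and the symbol families were added after seeing the data. Alternatives were the probe set with the highest mean, array centring, quantile normalization of the centred values, array weights and a robust prior. Others were the 6 arrays alone, brighter probe sets alone, a replicate block and leaving out each array.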

Additional observations from a re-analysis of the deposited data

Results flagged for a closer look

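The IFN-4a change differed between stimulated and resting cells, by the limma interaction test over all genes, for 40 of the named genes. Values are log2 differences, stimulated minus resting change, so a negative value for a raised gene is a smaller rise in stimulated cells, and a positive value for a lowered gene a smaller fall. Most of these genes were named for a large resting change, which favours a smaller change in stimulated cells. Of all 145 raised genes with a called difference, 138 changed less there. Genes not named also went the other way, among them Ifitm3 at 1.33, Lif at 1.19 and Ifng at 1.01 (adjusted p = 4.39e-06, 0.000504 and 0.00112). Lif and Ifng were not called at rest.

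Antiviral and sensing genes with a smaller rise were Iigp1 at -3.96, Cxcl10 at -3.14, Oasl2 at -2.31, Usp18 and Ifih1 both at -1.29, Ifit1 at -1.28, Cmpk2 at -0.91, Oas2 at -0.75 and Dhx58 at -0.58. Interferon signalling genes were Irf7 at -1.11, Irf9 at -1.10, Irf1 at -0.77 and Stat2 at -0.67. For antigen presentation the values were -2.24 for H2-T24, -1.01 for Nlrc5, -0.77 for H2-T23 and -0.42 for Psmb10. Coinhibitory genes were Cd274 at -2.24 and Lilrb4a at -1.25. Death genes were Casp4 at -0.90, Pml at -0.65 and Tnfsf10 at -0.44.

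Of raised genes in metabolic, signalling and growth lists, Ccnd2 was at -1.25, Nampt at -1.10, Il2ra at -0.97, B4galt5 at -0.93, Bcl6 at -0.92 and Cd69 at -0.85. Sla and Pole2 were both at -0.84, Wars at -0.83, Icam1 at -0.69 and Rbl1 at -0.46. Of lowered genes, Vmn1r20 was at 0.94, Slc25a37 at 0.64, Ubash3b at 0.62, Nat10 at 0.55, Gstt2 at 0.50, Qtrt1 at 0.47 and Pwp2 at 0.42.

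Probe sets outside the comparison also passed the test for IFN-4a in resting cells. Of 8458 without a gene symbol 136 were higher (1.61%) and 237 lower (2.8%), and of 1814 with several symbols 62 were higher (3.42%) and 130 lower (7.17%).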

How the results depend on the processing

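Of 135 called named genes, 117 kept their call and direction in all 20 alternatives and 18 lost the call in at least 1. With brighter probe sets alone, 609 genes were higher and 369 differed between the states, with 5679 genes tested. After quantile normalization of the centred values, 1216 genes were lower and 116 differed. In that setting 14 genes fell at least 2-fold against 2 in the reported fit. Each of the 12 largest increases was smaller (2.90 for Iigp1 to 3.99 for Trim30c), while Mturn, Cdc25b and Rasgrp2 were at -1.34, -1.26 and -1.22. Ccl3 was at -0.60 (adjusted p = 1.48e-05) and Ccl4 at -0.36 (0.0941), against 0.66 and 0.50 in the reported fit. The cause was not tested, and a setting run on centred values cannot test the normalization of expression levels. Cd3e, never called, ranged from -0.037 to 0.0161 with 1 array left out and was positive without the first PBS array (adjusted p = 0.897). Leaving out 1 array at a time gave 671 to 1019 genes higher, 1082 to 1957 lower, 172 to 189 changed at least 2-fold and 137 to 207 differing between the states, the lowest counts of lowered and of differing genes being with replicate 2 of PBS with IFN-4a left out (1082 and 137). Same-numbered PBS with IFN-4a and PBS arrays had deviations from their group means correlated at -0.0288, 0.0169 and 0.117. Differently numbered ones were correlated at -0.117 to 0.105. With 3 arrays a group these values cannot decide whether the numbers pair the arrays. With the replicate block, 986 genes were higher, 1925 lower and 221 differed between the states. Over the alternatives the median stayed at -0.175 or below for ribosome biogenesis and at -0.158 or below for lysosomal enzymes. Centred values give no signal over background, 3 arrays a group limit the precision of changes near 0.2, and with 1 array left out of a group the other 2 carry its mean.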

Other observations

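Transporter and zinc finger families were counted by symbol after the data had been seen, so their counts are descriptions. Of 46 mitochondrial carriers of the Slc25 family 8 fell (17.4%) and 3 rose, against 8.37% and 4.25% of all genes tested. The lowered carriers were Slc25a37, at -0.75, the ATP-magnesium and phosphate carriers Slc25a23 at -0.67 and Slc25a24 at -0.34, Slc25a27 at -0.40, Slc25a35 at -0.38, Slc25a33, a pyrimidine nucleotide carrier, at -0.38, Slc25a32 at -0.23 and the phosphate carrier Slc25a3 at -0.22. The raised ones were the glutamate carrier Slc25a22 at 1.05, Slc25a28, mitoferrin 2, at 0.21 and the citrate carrier Slc25a1 at 0.19. Both mitoferrin genes were thus called, in opposite directions.

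Of 315 other solute carrier genes 35 fell (11.1%) and 9 rose; of the 76 brighter members 22 fell and 1 rose. Slc9a9, an endosomal sodium and proton exchanger, fell by 0.60, as did Slc17a9, the vesicular nucleotide transporter, and Slc12a7, a potassium and chloride cotransporter, fell by 0.50. Slc46a3, a lysosomal transporter, rose by 0.60. Of 370 genes with a Zfp symbol 34 fell (9.19%) and 6 rose, led by Zfp932 at -0.56 and Zfp365 at 1.25.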
